A study of Mus musculus with 6 samples.

Results

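Semaphorins, plexins, Eph receptors, ephrins, Slits and Robos are families of cell surface and secreted proteins that are known as guides of growing axons. In the RNA sequencing table of vascular smooth muscle cells (SMC) examined here, they were taken by gene symbol alone, as the protein-coding rows named Sema3 to Sema7, Plxn, Eph, Efn, Slit and Robo1 to Robo3. This gave 57 of the 32179 listed genes, namely 20 semaphorins, 9 plexins, 14 Eph receptors, 8 ephrins, 3 Slits and 3 Robos. Of these 57, 44 had a mean of at least 10 over the 6 libraries and were compared between genotypes. Another 2 rows that matched the names, Plxna4os1 and Plxna4os2, are antisense RNA genes and were not counted. Sema3a and Sema4d lay just inside the limit, each at a mean of 10.2, and Plxnb3 and Sema3e just outside it at 7.5 and 6.83.

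Cells of iSM-G5C-KO mice (3 libraries), designed for induced depletion of GPRC5C, a G protein-coupled receptor, in smooth muscle, were set against cells of control mice (3 libraries). Both groups received tamoxifen. All mice were male C57BL6J of 8 to 24 weeks and carried the mTmG reporter, which turns on EGFP where Cre has recombined. The source label of every sample, controls included, reads Gprc5c-floxed, while the genotype label of the controls reads wild type. The labels do not name the promoter that drives the Cre. Skeletal muscle was digested, cells that bound antibodies to CD31, CD45 or Ter119 were depleted, and viable EGFP-positive cells were sorted. No label ties each library to a mouse of its own, so the p-values rest on the spread among these 6 samples, part of which may be technical.

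These families signal between cells, through ligands that are secreted or held in the membrane. Class 3 semaphorins are secreted and act through plexins, usually with a neuropilin as co-receptor, while classes 4 to 6 span the membrane and semaphorin 7A is held by a lipid anchor. Ephrins are anchored in the membrane and bind Eph receptor tyrosine kinases on the next cell, and signals can run into both cells. Slits are secreted and bind Robo receptors. In vessels the same systems pattern branches, separate arteries from veins and shape the contact of mural cells with endothelium, and plexins, Ephs and Robos all act on small GTPases that set the cytoskeleton.

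Values are normalised counts, which are reads per gene that the authors divided by a factor for each library and rounded. The listed genes held an estimated 1477485 to 2935114 reads per library. A value of 0.755 to 1.401 normalised counts stood for 1 read, so values near 10 rest on few reads. Control library 3 stood apart in low values, with 29707 genes above 0 against 20481 to 21179 in the other 5 libraries. Gprc5c itself was at 328, 305 and 360 in KO libraries 1, 2 and 3 and at 428, 532 and 497 in control libraries 1, 2 and 3, a log2 fold change of -0.55 ± 0.13 (SE) that limma did not call over all genes (adjusted p = 0.999). Summed values of 10 smooth muscle markers were 12275 to 14596 in KO libraries and 14285 to 14641 in controls, above every list of another cell type except, in 2 KO libraries and 1 control library, the pericyte list. All 10 smooth muscle markers had a lower KO mean on the log2 scale, as had 49.8% of all genes tested. Their median was -0.11, with 0 at an unadjusted p under 0.05 (limma), where all genes tested had 1.81%. Endothelial markers, meant to be depleted, summed to 798 to 1619 in KO libraries and 754 to 1238 in controls.

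No member of the 6 families passed the test between genotypes. With limma on log2(value + 1), 0 of 44 members passed an adjusted p of 0.05, as did 0 of all 12735 genes tested (0.0%). At an unadjusted p under 0.05 there were 0 members, against 230 of all genes (1.81%). The libraries of both groups share replicate numbers, and libraries of the same number deviated together. With that number as a block, 0 members passed either (background 0.00785%). At an unadjusted p under 0.05, 3 members were then higher in KO (Sema3g, Sema5b and Sema6d), 6.82% of members where the background is 4.29%, and 4 were lower (Epha4, Efnb2, Plxna4 and Plxnb1), 9.09% where it is 5.96%. The median log2 fold change of the members was 0.02, against 0.00 over all genes tested, with 24 members higher and 20 lower in KO. Without the block, leaving out KO library 1 put 6 members higher (13.6%, background 4.88%) and 4 lower (9.09%, background 5.39%) at an unadjusted p under 0.05, among them Sema3g, Robo1, Efnb2, Epha4 and Plxna4, with 0 past the adjusted threshold. Leaving out control library 3 put 2 lower (Efnb2 and Plxna4), 4.55% where the background is 0.982%. Leaving out control library 1, control library 2 or KO library 2 put 1 lower each (Sema3a, Sema4d and Ephb2), 2.27% where the background is 0.652%, 0.33% and 0.911% in that order.

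**Figure D1:**
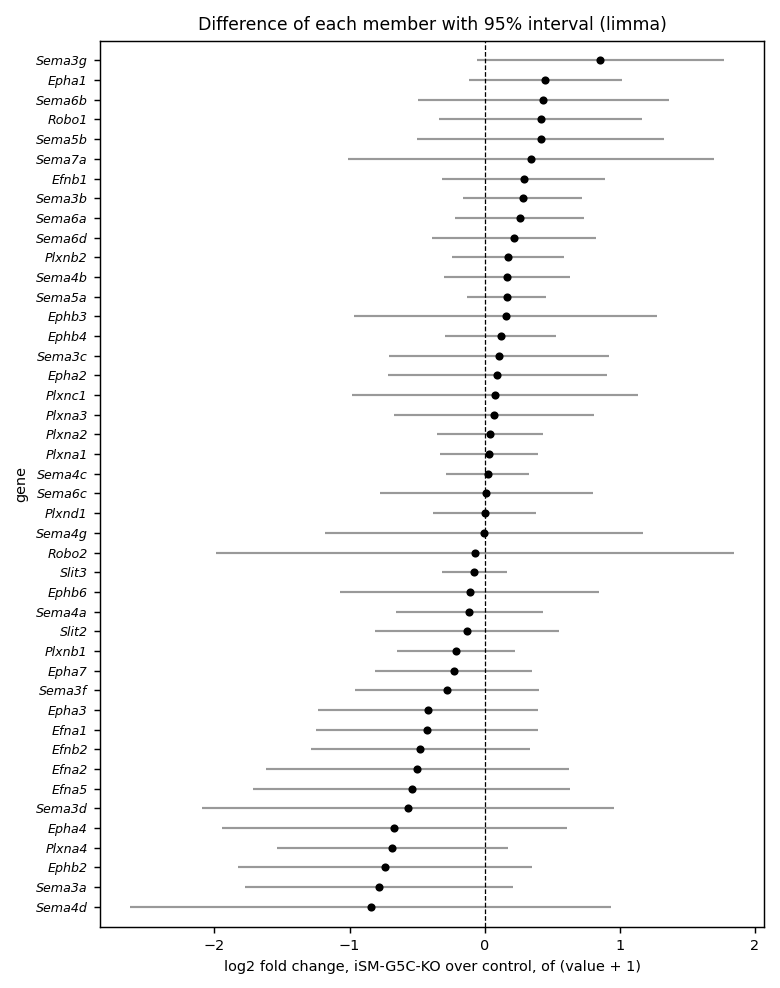
Log2 fold change of each of the 44 members, iSM-G5C-KO over control, on log2(value + 1), with its 95% interval from limma without a block. Every interval includes 0, and the estimates run from -0.84 for Sema4d to 0.85 for Sema3g.

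Of the 4 members that were lower under the block, Epha4, Efnb2 and Plxna4 had larger differences than Plxnb1. Epha4, a receptor that binds both A and B class ephrins (ENSMUSG00000026235, chr1:77367185-77515088, minus strand, GRCm38), was at 161, 60 and 46 in KO libraries 1, 2 and 3, against 241, 94 and 80 in control libraries 1, 2 and 3. The groups overlapped, because both libraries numbered 1 were far above the rest, while the KO library was lower within each number. The differences within numbers 1, 2 and 3 were -0.58, -0.64 and -0.79 on the log2 scale. The log2 fold change was -0.67 with a 95% interval from -1.94 to 0.61 without the block (adjusted p = 0.999 with limma), and the unadjusted p with the block was 0.000498 (adjusted p = 0.142).

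Efnb2 encodes ephrin-B2, a transmembrane ligand found on arterial endothelium and on the mural cells of vessels (ENSMUSG00000001300, chr8:8617434-8661242, minus strand). Its values were 265, 166 and 130 in KO libraries, against 351, 280 and 157 in controls. Each KO library was below the control of its number, and the groups overlapped. The log2 fold change was -0.48, with a 95% interval from -1.28 to 0.33 without the block and from -0.73 to -0.22 with it (limma, adjusted p = 0.999 and 0.213). When each library was left out in turn it ran from -0.81 (without control library 3) to -0.23 (without control library 1).

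Plxna4, a plexin that serves as a signalling subunit for class 3 and class 6 semaphorins (ENSMUSG00000029765, chr6:32144268-32588192, minus strand), was at 93, 41 and 49 in KO libraries and 128, 101 and 61 in controls. KO libraries 2 and 3 were below every control. The log2 fold change was -0.68, with an interval from -1.54 to 0.17 (adjusted p = 0.999 with limma, 0.281 with the block). The antisense genes Plxna4os1 and Plxna4os2 were at 0 or 1 in every library. Plxnb1, the receptor of semaphorin 4D, was at 630, 534 and 462 in KO libraries and 704, 706 and 487 in controls, a log2 fold change of -0.21 (interval -0.65 to 0.23). Again the groups overlapped and each KO library was below the control of its number.

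The 3 members with higher KO values at an unadjusted p under 0.05 with the block are described next, and 18 of the 44 tested members were semaphorins. Sema6d, a transmembrane semaphorin that binds plexin A1 (ENSMUSG00000027200, chr2:124089969-124667770, plus strand), was at 474, 713 and 863 in KO libraries and 440, 581 and 731 in controls, a log2 fold change of 0.21 (interval -0.39 to 0.82 without the block). Sema5b, another transmembrane semaphorin, was at 52, 127 and 111 in KO libraries and 43, 84 and 85 in controls, with a log2 fold change of 0.41. Both were higher in KO within every number, while the lowest values of both groups were those of the libraries numbered 1. Sema3g, a secreted semaphorin of arterial endothelium in mouse, had the smallest p without the block (unadjusted p = 0.063, adjusted p = 0.999, limma) and, of the 44 members, the largest positive difference, 0.85 on the log2 scale. It was at 20, 46 and 55 in KO libraries and 25, 17 and 19 in controls, so KO libraries 2 and 3 were above every control and KO library 1 was not. Its log2 fold change was 1.28 without KO library 1 (unadjusted p = 0.00208, adjusted p = 0.397, limma). All 14 endothelial markers also had a higher KO mean on the log2 scale, against 6394 of all 12735 genes tested. Their median log2 fold change was 0.23, and their sums were 798, 1502 and 1619 in KO libraries and 754, 993 and 1238 in controls. The part of endothelial cells in the Sema3g values was not tested, and in bulk samples more cells of a type and more RNA per cell cannot be told apart.

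**Figure D2:**
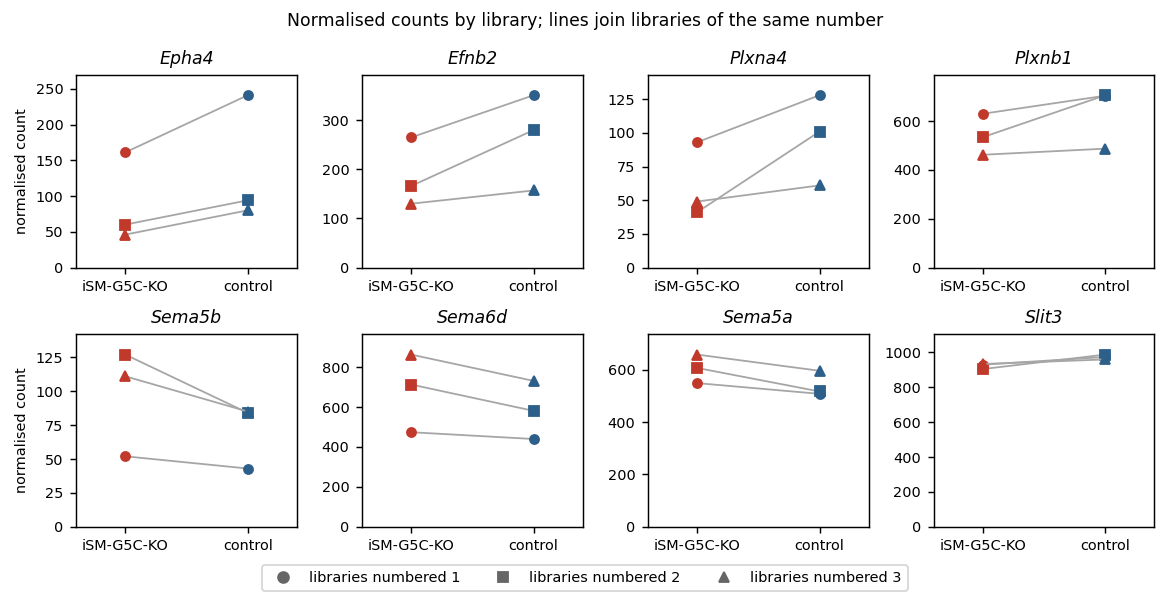
Normalised counts of 8 members in the 3 iSM-G5C-KO libraries (left, red) and the 3 control libraries (right, blue), each axis from 0; lines join libraries with the same replicate number. For Epha4, Efnb2, Plxna4 and Plxnb1 every line is higher at the control end, for Sema5b, Sema6d and Sema5a at the KO end, and the values of Slit3 lie close together. For Epha4 the libraries numbered 1 lie far from the others in both groups.

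The starts of the members with the smallest p under the block are shown so that the sites upstream of them can be read. These are Epha4, Efnb2 and Sema5b, and Plxna4 is named only. Each run is the 250 bases before the RefSeq start (GRCm38.p6), 5′ to 3′ on the strand of the gene, at chr1:77515089-77515338 (minus strand), chr8:8661243-8661492 (minus strand) and chr16:35541112-35541361 (plus strand). Capitals mark GGGCGG, the GC box, searched on both strands.
Epha4: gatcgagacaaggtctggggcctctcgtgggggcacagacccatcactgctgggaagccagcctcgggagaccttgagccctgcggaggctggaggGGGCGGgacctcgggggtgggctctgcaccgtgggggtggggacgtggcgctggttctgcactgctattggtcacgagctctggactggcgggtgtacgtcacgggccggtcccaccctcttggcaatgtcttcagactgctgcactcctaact
Efnb2: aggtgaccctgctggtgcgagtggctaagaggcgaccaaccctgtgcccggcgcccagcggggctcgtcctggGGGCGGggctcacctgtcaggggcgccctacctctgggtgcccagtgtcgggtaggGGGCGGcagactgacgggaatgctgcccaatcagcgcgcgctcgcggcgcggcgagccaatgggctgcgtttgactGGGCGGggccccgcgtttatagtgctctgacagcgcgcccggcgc
Sema5b: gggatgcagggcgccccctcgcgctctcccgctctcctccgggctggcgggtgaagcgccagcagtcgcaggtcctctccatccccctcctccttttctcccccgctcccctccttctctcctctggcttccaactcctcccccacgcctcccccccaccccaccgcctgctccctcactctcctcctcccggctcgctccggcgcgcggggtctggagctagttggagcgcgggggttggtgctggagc

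The Efnb2 stretch holds 3 GC boxes, that of Epha4 1 and that of Sema5b 0. Of the 44 members, 39 matched a promoter entry, with 54 starts in all, and 39 of the 54 starts (72.2%) held a GC box, against 32.7% of all 32851 starts. Member starts were also richer in G and C, at a median of 64.4% against 52.4% over all starts. The member starts are of genes with a mean of at least 10, while all starts were taken without that limit. The sets thus differ in more than family, and starts of genes with like levels were not compared. GTGGGAA, the core bound by the Notch effector RBPJ, was found on either strand in 3 of 54 member starts (5.56%) and 5.42% of all starts. It was in 0 of the 3 printed here. The CArG box of serum response factor was in only 2 of 54 member starts (3.7%) and 1.47% of all, and in 0 of the 3. A match describes letters in this window and is not a bound site.

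Plexins were the receptors with the highest levels. To compare genes, values were divided by the length of their merged exons in kilobases (kb). Merged exons take in every annotated transcript of a gene, used in these cells or not. Orders and ratios between genes per kb therefore depend on that length, and no other length was tried. Plxnd1, the receptor of semaphorin 3E known from vessel patterning, had 178.1 ± 28.4 per kb in KO libraries and 177.3 ± 21.9 per kb in controls (SD, n = 3 each). Plxnb2, a receptor of class 4 semaphorins, had 124.5 ± 24.1 and 109.4 ± 13.7 per kb in KO libraries and controls, and Plxna1, a partner of neuropilins, 101.8 ± 16 and 99.2 ± 10.3 per kb (SD, n = 3 each). Among these 3 receptors only the first stood clear of its neighbour, since the SDs of Plxnb2 and Plxna1 overlapped. Plxnb1 came next among plexins at 56.5 ± 8.79 per kb in KO libraries and 65.9 ± 13.1 per kb in controls (SD, n = 3 each), and Plxna2 followed far below at 11 and 10.8 per kb.

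**Figure D3:**
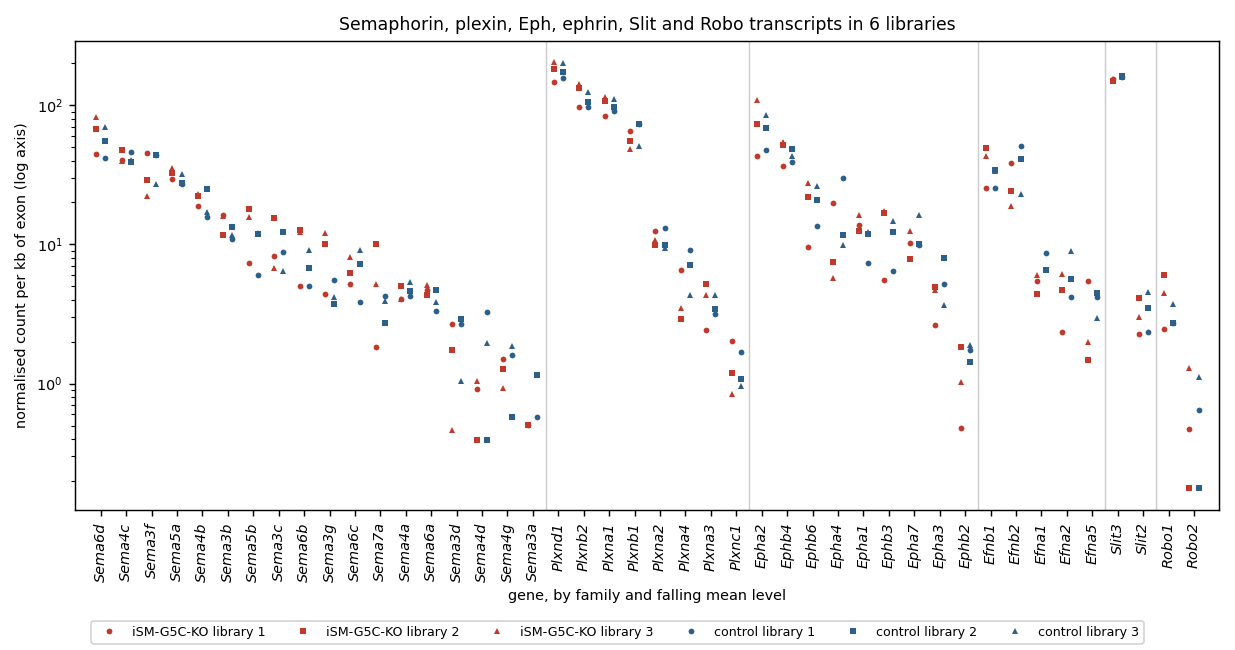
Normalised count per kb of merged exons (log axis) of the 44 members in every library, by family and falling mean level; red points are iSM-G5C-KO and blue points control libraries, with a marker shape for each replicate number. Mean levels in KO libraries span from 0.505 per kb for Sema3a to 178.1 per kb for Plxnd1, and red and blue points overlap for all but Epha1, Slit3, Efna1 and Sema3a.

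The intervals of the 3 plexins with the highest levels all included 0. Plxnd1 was at 1079, 1331 and 1490 normalised counts in KO libraries and 1152, 1264 and 1468 in controls, a log2 fold change of 0.00 with a 95% interval from -0.38 to 0.38. Plxna1 was at 758, 972 and 1034 in KO libraries and 818, 877 and 1000 in controls (0.03, interval -0.33 to 0.39). Plxnb2 was at 750, 1032 and 1102 in KO libraries and 753, 820 and 960 in controls (0.17, interval -0.24 to 0.59, and -0.01 to 0.36 with the block). Without KO library 1, Plxnb2 was at 0.34 (unadjusted p = 0.0467, adjusted p = 0.482, limma). In each case the groups overlapped and both libraries numbered 1 held the lowest value of their group. Of the remaining plexins, Plxna2 averaged 189.7 ± 22.4 normalised counts in KO libraries and 186.0 ± 35.7 in controls, Plxna3 31.3 ± 11.2 and 28.7 ± 4.73, and Plxnc1, the receptor of semaphorin 7A, 11.3 ± 5.13 and 10.3 ± 3.21 (SD, n = 3 each). Plxnc1 was at 17, 10 and 7 in KO libraries and 14, 9 and 8 in controls.

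Semaphorins with the highest levels per kb were Sema6d, Sema4c and Sema3f. Sema6d had 64.7 ± 18.6 per kb in KO libraries and 55.3 ± 13.8 per kb in controls, Sema4c, a ligand of plexin B2, 42.5 ± 4.28 and 41.9 ± 3.99 per kb, and Sema3f, a secreted ligand that works with neuropilin 2, 32.2 ± 11.8 and 38.3 ± 9.5 per kb (SD, n = 3 each). The SDs of neighbours in this order overlapped. Sema4c was at 185, 218 and 183 normalised counts in KO libraries and 213, 178 and 186 in controls, a log2 fold change of 0.02 (interval -0.29 to 0.33). Sema3f was at 235, 152 and 115 in KO libraries and 227, 228 and 142 in controls (-0.28, interval -0.96 to 0.40).

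Other semaphorins among those with the smallest p were of moderate or low level. Sema5a, a transmembrane semaphorin, was at 549, 607 and 658 normalised counts in KO libraries and 508, 517 and 596 in controls, a log2 fold change of 0.16 (interval -0.13 to 0.45) that was positive within every number. Sema3b, a secreted semaphorin, was at 78, 56 and 77 in KO libraries and 52, 64 and 56 in controls (0.28, interval -0.16 to 0.72). Sema6a was at 41, 38 and 45 in KO libraries and 29, 41 and 34 in controls (0.26, interval -0.22 to 0.74). In all 3 the groups overlapped. Sema3a, the first secreted axon repellent described, was at 7 in every KO library and at 8, 16 and 16 in controls (-0.78, interval -1.77 to 0.21), and its groups did not overlap although control library 1 was 1 normalised count above KO.

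Sema4d and Sema7a, the ligands of plexin B1 and plexin C1, had low values. Sema4d was at 7, 3 and 8 in KO libraries and 25, 3 and 15 in controls, and Sema7a at 6, 33 and 17 in KO libraries and 14, 9 and 13 in controls. Their intervals were wide, -2.62 to 0.93 for Sema4d and -1.01 to 1.70 for Sema7a, so that at these values a sizeable difference either way was not detectable. The remaining semaphorins are given as means in KO libraries and controls (SD, n = 3 each). Sema3c averaged 72.7 ± 33.7 and 65.3 ± 20.6, Sema3d 14 ± 9.54 and 19 ± 8.72, Sema4a 23.7 ± 2.89 and 25.7 ± 3.06, and Sema4b 120.7 ± 12.9 and 109.3 ± 28.6. Sema4g averaged 10.7 ± 2.52 and 11.7 ± 5.86, Sema6b 39.7 ± 17 and 27.7 ± 8.02, and Sema6c 38.7 ± 8.62 and 40 ± 15.7. Within these 7 genes the SDs of the groups overlapped throughout.

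Among Eph receptors, Epha2 had the highest level, followed by Ephb4 and Ephb6. Epha2, a receptor of A class ephrins, had 75 ± 33.3 per kb in KO libraries and 67.3 ± 18.7 per kb in controls (SD, n = 3 each). Ephb4, best known from venous endothelium as the partner of ephrin-B2, had 47.6 ± 9.38 and 43.4 ± 4.65 per kb, and Ephb6, a member without kinase activity, 19.7 ± 9.31 and 20.1 ± 6.38 per kb. Epha2 was at 200, 340 and 511 normalised counts in KO libraries and 223, 323 and 397 in controls, a log2 fold change of 0.09 (interval -0.72 to 0.91). Ephb4 was at 171, 239 and 252 in KO libraries and 181, 224 and 199 in controls (0.12, interval -0.29 to 0.53), and Ephb6 at 36, 82 and 105 in KO libraries and 51, 78 and 99 in controls (-0.11, interval -1.07 to 0.85). All 3 had their lowest value in the library numbered 1 of each group, and the groups overlapped.

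Epha1, a receptor of A class ephrins, was the only one of the 44 tested members that was above every control in all KO libraries. Its values were 54, 49 and 64 in KO libraries and 29, 47 and 48 in controls, a log2 fold change of 0.45 (interval -0.12 to 1.01, adjusted p = 0.999 with limma). The lowest KO library and the highest control differed by 1 normalised count. Ephb2, a receptor of B class ephrins, was at 6, 23 and 13 in KO libraries and 22, 18 and 24 in controls (-0.74, interval -1.83 to 0.35). Of the others, Epha3 averaged 35.7 ± 11 normalised counts in KO libraries and 48.7 ± 18.8 in controls, Epha7 100.7 ± 22.5 and 119.7 ± 36.7, and Ephb3 88 ± 44.2 and 74.3 ± 28.3 (SD, n = 3 each).

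Ephrins were mostly lower in KO means, with the exception of Efnb1. Of 5 tested ephrins, 4 (80.0%, background 49.8%) had a lower mean on the log2 scale, none past the threshold. The median log2 fold change was -0.48. Efna1, Efna2 and Efna5 had means of only 11.5, 11.3 and 13.8 over the 6 libraries. Lower members made up 33.3% of the 18 tested semaphorins, 25.0% of the 8 plexins and 55.6% of the 9 Eph receptors. Efnb1, the X-linked transmembrane ephrin, was at 88, 171 and 148 in KO libraries and 88, 118 and 117 in controls (0.29, interval -0.31 to 0.89), equal between the libraries numbered 1. Efna1, a lipid-anchored ligand of Epha2, was at 10, 8 and 11 in KO libraries and 16, 12 and 12 in controls (-0.42, interval -1.25 to 0.40). Its groups did not overlap, at values close to the limit for testing. Efna2 averaged 9.33 ± 4.04 in KO libraries and 13.3 ± 5.13 in controls, and Efna5 12 ± 8.72 and 15.7 ± 3.21 (SD, n = 3 each).

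Slit3 was the ligand with the highest level per kb and, of the 44 members, had the narrowest interval. It had 152.1 ± 2.59 per kb in KO libraries and 160.5 ± 2.31 per kb in controls (SD, n = 3 each), close to Plxnd1 on the same scale. Slit3 (ENSMUSG00000056427, chr11:35121224-35708507, plus strand) was at 930, 905 and 934 normalised counts in KO libraries and 974, 988 and 960 in controls. The groups did not overlap, at a log2 fold change of -0.08 with an interval from -0.32 to 0.16 (adjusted p = 0.999 with limma). Slit2 was at 58, 104 and 77 in KO libraries and 60, 89 and 115 in controls (-0.13, interval -0.81 to 0.55), and per kb it was far below Slit3, at 3.13 ± 0.909 and 3.46 ± 1.08 (SD, n = 3 each). Part of that gap is length, with merged exons of 25433 bases for Slit2 and 6067 for Slit3. Undivided, the means over the 6 libraries were 83.8 normalised counts for Slit2 and 948.5 for Slit3. Robo1, the receptor of both Slits with the highest level here, was at 41, 99 and 74 in KO libraries and 45, 45 and 62 in controls (0.41, interval -0.34 to 1.17), with KO libraries 2 and 3 above every control. Robo2 was at 8, 3 and 22 in KO libraries and 11, 3 and 19 in controls.

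The 44 members were also counted by overlap of the groups. Epha1 was higher in KO without overlap, 1 of 44 members (2.27%, background 2.69%). Slit3, Efna1 and Sema3a were lower without overlap, 3 of 44 (6.82%, background 2.21%). Within numbers, 4 members were higher in every KO library than in the control of its number (Epha1, Sema5a, Sema5b and Sema6d), 9.09% against a background of 14.0%. Another 8 were lower in all 3 pairs (Epha4, Slit3, Efna1, Efna2, Efnb2, Plxna4, Plxnb1 and Sema3a), 18.2% against 15.4%. These counts are small, and no test of the list was made.

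As in the table at large, more of the variation of these genes lay between replicate numbers than between genotypes. When the variance of each gene on the log2 scale was divided between number, genotype and the rest, number held a median of 73.1% over the members and genotype 14.6%, against 62.0% and 9.4% over all genes tested. Number, with 2 degrees of freedom against 1 for genotype, held more than genotype in 36 of 44 members (81.8%), near the background of 84.2%. In 17 of 44 members (38.6%, background 23.4%) the library numbered 1 was the lowest of its group in both groups. These include Plxnd1, Plxna1, Plxnb2, Epha2, Ephb3, Ephb4, Ephb6, Sema6d and Efnb1. In 5 of 44 (11.4%, background 27.6%) it was the highest in both, namely Epha4, Efnb2, Plxna2, Plxna4 and Plxnc1.

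Cell type markers and depth moved with the numbers as well. Pericyte markers summed to 11186, 14205 and 18700 in KO libraries 1, 2 and 3 and 10515, 12478 and 16157 in control libraries 1, 2 and 3. All 10 had a higher KO mean on the log2 scale, against 6394 of all 12735 genes tested. Schwann cell markers were highest in the libraries numbered 1, at 499, 307 and 252 in KO libraries and 487, 287 and 286 in controls. Fibroblast markers summed to 2765, 4790 and 4247 in KO libraries and 3318, 4397 and 4859 in controls. Estimated reads in the listed genes were 2581454, 2200237 and 1477485 in KO libraries and 2935114, 2253883 and 1556750 in controls. Skeletal muscle fibre markers summed to 2197, 4689 and 9174 in KO libraries and 1567, 2576 and 3789 in controls. Of these 12 markers, 11 were higher in KO, against 6394 of all 12735 genes tested. An unadjusted p under 0.05 (limma without the block) was reached by 2 of the 12, where the background is 1.81%. Leukocyte markers summed to 435, 125 and 638 in KO libraries and 543, 125 and 532 in controls, with Cd3e at or below 3 throughout. Satellite cell and erythroid lists summed to at most 149 in any library. Whether the mix of cells or the depth had a part in the values of the guidance genes was not tested.

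Among 7 textbook ligand and receptor pairs, transcript levels per kb were far apart in some and alike in others. The ratios are of RNA in bulk samples and depend on the merged exon lengths, so protein was not compared. For ephrin-B2 and EphB4 the ratio of the levels per kb, ligand over receptor, was 1.05, 0.47 and 0.349 in KO libraries 1, 2 and 3 and 1.31, 0.846 and 0.534 in control libraries 1, 2 and 3. It was lower in KO within every number, and the groups overlapped. Slit3 exceeded Robo1 per kb by 61.7, 24.9 and 34.3 times in KO libraries and by 58.9, 59.8 and 42.1 times in controls. For Slit2 and Robo1 the ratio was near 1, from 0.676 to 0.918 in KO libraries and 0.866 to 1.28 in controls. Plexins D1, B1 and A4 were above their named ligands. Sema3e, the ligand of plexin D1, had 0.467 per kb in KO libraries and 1.01 per kb in controls, beside 178.1 and 177.3 per kb of Plxnd1. Sema4d had 0.781 and 1.87 per kb beside 56.5 and 65.9 per kb of Plxnb1 in KO libraries and controls. Sema3a had 0.505 and 0.961 per kb beside 4.33 and 6.85 per kb of Plxna4, and Sema7a had 5.66 and 3.64 per kb beside 1.36 and 1.24 per kb of Plxnc1. By library, the ratio of Sema7a to Plxnc1 was 0.893, 8.35 and 6.15 in KO libraries and 2.53, 2.53 and 4.11 in controls. Both genes had low values, and in KO library 1 the order was turned.

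**Figure D4:**
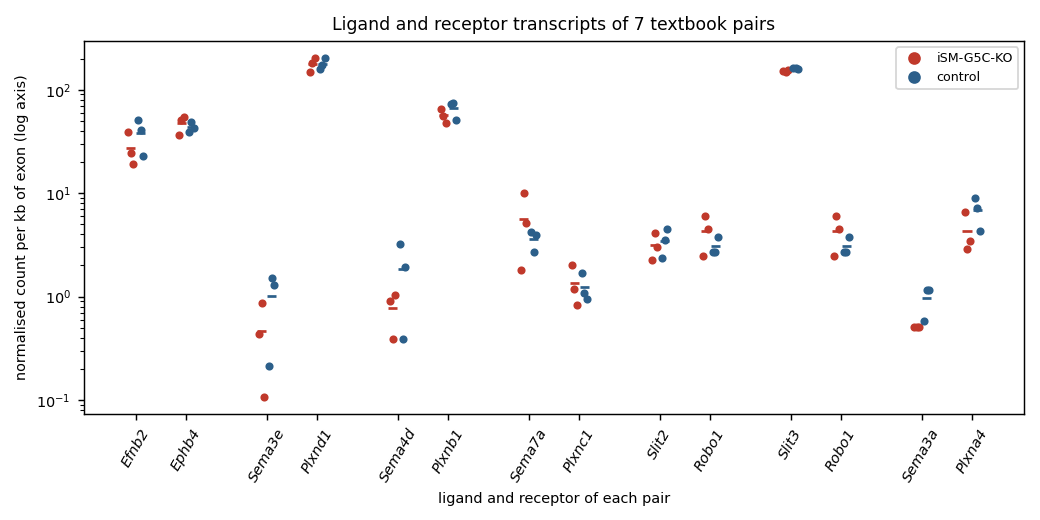
Normalised count per kb of merged exons (log axis) of the ligand (left) and receptor (right) of 7 textbook pairs; points are libraries, red iSM-G5C-KO and blue control, and short bars are group means. Slit3 lies far above Robo1, Sema3e, Sema4d and Sema3a lie below their receptors, and Efnb2 and Ephb4 lie at like levels.

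Co-receptors and signalling partners were read from a list of 79 other guidance genes, of which 77 were listed and 68 tested. None passed an adjusted p of 0.05 with limma, with or without the block. Only 1 (1.47%, background 1.81%) was at an unadjusted p under 0.05 without the block. That gene was Met, the receptor of hepatocyte growth factor, which can pair with plexin B1. Met was at 26, 19 and 39 in KO libraries and 14, 14 and 12 in controls, a log2 fold change of 0.96 with an interval from 0.20 to 1.72 (unadjusted p = 0.0196, adjusted p = 0.999, limma). Its groups did not overlap. With the block, 11 of the 68 were at an unadjusted p under 0.05 and higher in KO (16.2%, background 4.29%) and 8 lower (11.8%, background 5.96%), again with 0 past the adjusted threshold. The smallest unadjusted p with the block were those of Limk1 (0.00121, higher in KO) and Enah (0.00159, lower in KO), both chosen after their values were seen. The median log2 fold change of the 68 was 0.02, with 40 higher and 28 lower.

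Without the block, the smallest p in that list after Met belonged to Ngef, Neo1 and Rnd1. Ngef, an exchange factor that Eph receptors act through, was at 35, 14 and 7 in KO libraries and 43, 30 and 23 in controls (-0.97, interval -2.24 to 0.29). Neo1, the receptor neogenin for netrins and repulsive guidance molecules, was at 459, 295 and 245 in KO libraries and 503, 477 and 349 in controls (-0.44, interval -1.02 to 0.14). Rnd1, a GTPase that binds plexins, was at 116, 25 and 14 in KO libraries and 127, 103 and 49 in controls (-1.29, interval -2.98 to 0.40). All 3 were lower in KO within every number, and their groups overlapped. Rnd1 passed the adjusted threshold in 1 alternative, the block without both libraries numbered 1 (log2 fold change -1.87, adjusted p = 0.0363, limma). Of the neuropilins, co-receptors of class 3 semaphorins, Nrp1 was at 445, 656 and 791 in KO libraries and 415, 530 and 634 in controls (0.24, interval -0.32 to 0.80), and Nrp2 at 225, 414 and 389 in KO libraries and 215, 277 and 386 in controls (0.22, interval -0.45 to 0.89). In the deposited annotation 55 of the 57 members carry the KEGG term axon guidance. Another 115 genes with that term are not members, and genes of the list above were not taken out of them. The shares of both sets may therefore rest partly on the same genes. Of these 115, 102 were tested, with 0 past an adjusted p of 0.05. At an unadjusted p under 0.05 there were 3 (2.94%, background 1.81%), and the median log2 fold change was 0.03. With the block, 11 of the 102 were higher at that p (10.8%, background 4.29%) and 9 lower (8.82%, background 5.96%), with 0 past the adjusted threshold.

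The 13 members under a mean of 10 were Epha5, Epha6, Epha8, Epha10, Ephb1, Efna3, Efna4, Efnb3, Plxnb3, Sema3e, Sema4f, Slit1 and Robo3. Their values summed to 28, 33 and 19 in KO libraries and 35, 28 and 75 in controls, with the highest sum in control library 3. Slit1 was listed at 0 in all KO libraries and in control libraries 1 and 2 and at 11 in control library 3. Robo3 was likewise at 0 in all libraries but control library 3, where it was at 3. Sema3e was at 4, 8 and 1 in KO libraries and 2, 14 and 12 in controls. A total of 12 of the 13 were above 0 in control library 3, against 6 to 9 in the other libraries, alongside the larger number of genes above 0 in that library, so no difference was read from these members.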

How the data were processed

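RNA of sorted EGFP-positive cells from skeletal muscle was sequenced in 3 iSM-G5C-KO and 3 control libraries, made from low RNA input with a stranded total RNA kit, per the labels' protocols. Trimmomatic 0.39, the aligner STAR 2.6.1d, featureCounts 1.6.5 and DESeq2 1.18.1 are listed, per the submitters' processing notes. The use of strand in counting and the handling of duplicates are not given there. The deposited values are a score: gene counts that the authors divided by a factor for each library and rounded to whole numbers, so no count model was run on them. The value of 1 read, and from it the reads in the listed genes per library (1477485 to 2935114), was estimated from steps in the low values.

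All 12735 genes with a mean of at least 10 were fitted with limma 3.58.1 (R 4.3.3, trend) on log2(value + 1), with Benjamini-Hochberg adjustment over all of them. A fold change on this scale understates that of low genes. An exact permutation test of 3 against 3 libraries cannot give a p below 0.1, so it was not used. Same-numbered libraries deviated together (correlation of deviations over genes 0.586, 0.31 and 0.444 for numbers 1, 2 and 3, at most 0.157 for other pairs), and were treated as pairs. The labels do not explain the numbers, so this pairing rests on the values. Levels per kb used merged exons of GENCODE M21 (GRCm38), where 57 of 57 member IDs were found. Member coordinates are those of the deposited table.

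The members and gene lists were chosen with earlier results of these data known. Values in every library were given for the 12 members with the smallest p, the 3 with the highest level per kb in each family, both sides of 7 textbook pairs, the 4 other guidance genes with the smallest p and the neuropilins. Sema5b, the promoters printed and the members counted by overlap were singled out after their values were seen. The 12 alternatives set at the outset were the replicate block, a pseudocount of 5, no filter, upper-quartile scaling, no trend, sample quality weights and leaving out each library. Another 3 were added after seeing the data.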

Additional observations from a re-analysis of the deposited data

How the results depend on the processing

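Members past an adjusted p of 0.05 numbered 0 under all 15 alternatives. Over all genes that count was 0, and 1 with the replicate block, 2 with sample quality weights, and, when the block was fitted without the pair numbered 1 or the pair numbered 2 (chosen after seeing the data), 61 and 1. Genes at an unadjusted p under 0.05 numbered 230 of 12735. That count was 1305 with the block, 295 without the trend, 2228 with quality weights, and 693 of 32179 with no filter. It was 1514, 836 and 792 with the block and numbers 1, 2 or 3 left out, and 125 to 1309 with each library left out. Members at that p were 0 higher and 0 lower, of 44. They became 3 and 4 with the block, 7 and 7 with quality weights, and 0 and 1 without the trend. With the block they were 8 and 5 without number 1, 2 and 4 without number 2, and 0 and 5 without number 3. With each library left out they were 0 to 6 higher and 0 to 4 lower, the most without KO library 1. For quality weights, no trend and the block without a number, shares by direction over all genes were not worked out. No excess is read from those member counts. The members' median of 0.017 became -0.071 with the block without number 2, and ran from -0.06 to 0.101 with each library left out.

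Of 36 named genes, 26 kept their sign throughout. With quality weights the sign turned for Sema4d (0.0646), Ephb6 (0.0542), Slit2 (0.0142) and Robo2 (0.5246). With the block it turned without number 1 for Ephb6 (0.0777), Robo2 (0.1008) and Plxnc1 (-0.0162), without number 2 for Sema4c (-0.1128), Plxna1 (-0.0308), Plxnd1 (-0.0365) and Sema7a (-0.3685), and without number 3 for Epha2 (-0.0413), Plxnd1 (-0.0100) and Slit2 (0.0871). With each library left out, log2 fold changes ran from -0.2289 to 0.4455 for Epha2, -0.0594 to 0.0971 for Sema4c, -0.4238 to 0.3355 for Ephb6, -0.0605 to 0.1632 for Plxna1, -0.1041 to 0.1285 for Plxnd1, -0.3808 to 0.0828 for Slit2, -0.1901 to 0.95 for Sema7a, -0.7223 to 0.5444 for Robo2 and -0.2365 to 0.3484 for Plxnc1. Rnd1 alone passed the adjusted threshold, without number 1 under the block. The cause of these shifts was not tested. Depth limits the members near 10 normalised counts, where single reads move a value.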
